A study of Mus musculus with 74 samples.

Results

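Brown adipose tissue, the fat that produces heat, was compared between mice given troglitazone and mice given vehicle for 15 days. The comparison took the 5 arrays labelled brown fat, troglitazone, day 15 and the 5 arrays labelled brown fat, vehicle, day 15, which are 10 of the 74 arrays of the series. All were male B6C3F1 mice, a cross of laboratory strains. The treated group received 1200 mg/kg troglitazone daily by mouth and the control group received vehicle by mouth; the age of the animals is not given in the sources used here. The series profiled target tissues of hemangiosarcoma, a tumour of vascular endothelium, in mice given 1 of 3 compounds, troglitazone among them. Each array was hybridised with biotin-labelled cRNA made from total RNA of 1 sample, and its number (41 to 45 for vehicle, 51 to 55 for troglitazone) is taken here as the mouse's number, since brown fat and liver arrays share it.

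Troglitazone is a thiazolidinedione, a class of drugs that bind and activate PPARγ, the nuclear receptor that directs adipocyte formation and fat storage. PPARγ acts with a retinoid X receptor on direct repeats of a short half-site in DNA and raises genes of lipid uptake, droplet storage and fatty acid use. Brown adipocytes carry high PPARγ and PPARα, burn fatty acids through the uncoupling protein UCP1, and lie in a dense capillary bed, so that endothelial genes are well represented in their RNA.

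The values are probe set intensities, and every level and difference below is on the log2 scale, where 1 unit is a doubling. Of 45101 probe sets, 34945 carried 1 gene symbol, and the probe set with the highest mean stood for each of 18193 genes. Within the groups, arrays correlated at 0.983 to 0.996 (20 pairs), and no pair held identical values. The labels do not state that the mice were housed or processed apart, so the p-values measure only the spread between these samples.

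The brown fat label was borne out by its markers on all 10 arrays: Ucp1 read 14.96, 14.95, 14.91, 14.98 and 14.98 in vehicle mice 41 to 45 and 14.97, 15.00, 14.95, 15.01 and 15.05 in troglitazone mice 51 to 55. The mean of the 17 measured thermogenic genes, set against the vehicle mean, lay between -0.14 and 0.11 on the 10 arrays. Skeletal muscle genes, which mark muscle tissue taken with the fat pad, varied far more. Their 19-gene mean was -2.58, 0.83, 1.31, 0.94 and -0.49 in vehicle mice 41 to 45 and 0.13, 0.50, -0.25, -3.00 and 0.09 in troglitazone mice 51 to 55. Vehicle mouse 41 and troglitazone mouse 54 were thus low in muscle RNA, 1 in each group, and the groups overlapped. Of the 19 muscle genes 18 had a lower mean in treated mice, with a median of -0.54 and none called, and the part of muscle RNA in the results below was tested only by leaving out those 2 arrays. A 9-gene hepatocyte mean stood at 1.59 in vehicle mouse 42 against values below 0 on the other 9 arrays. Of these 9 hepatocyte genes 8 had a lower mean in treated mice, with a median of -0.32 and none called. In bulk tissue such as this, fewer cells of a type and less RNA per cell cannot be told apart.

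**Figure D1:**
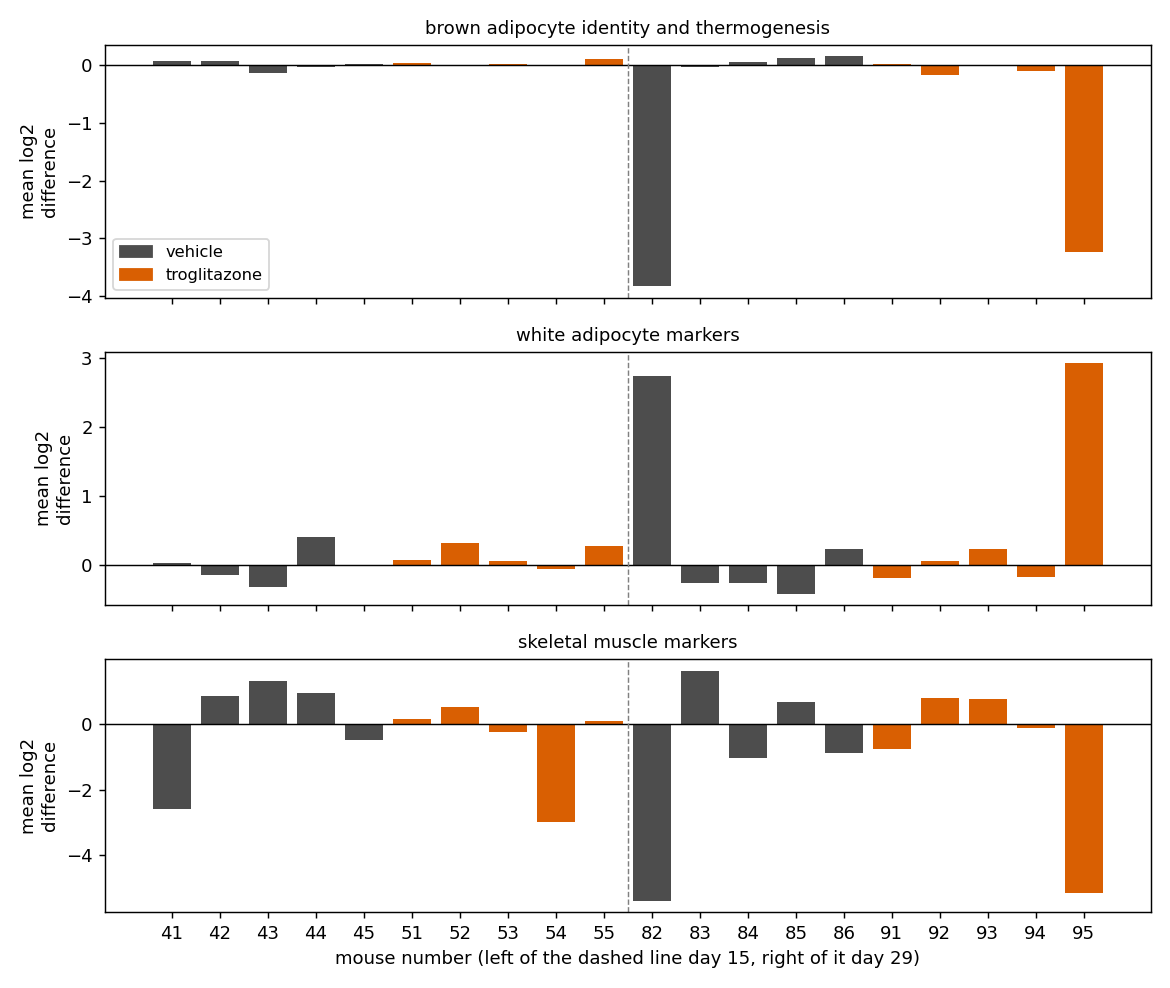
Mean log2 difference from the day 15 vehicle mean for 3 marker lists on each of the 20 brown fat arrays (bars, vehicle grey, troglitazone orange), with the mouse number on the horizontal axis. On day 15 the thermogenic bars lie between -0.14 and 0.11, the muscle bars of vehicle mouse 41 and troglitazone mouse 54 reach -2.58 and -3.00, and on day 29 mice 82 and 95 stand apart in all 3 lists.

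Troglitazone changed 102 of 18193 genes (0.561% of genes tested) at an adjusted p below 0.05 in limma with Benjamini-Hochberg adjustment. Of these, 80 rose (0.44%) and 22 fell (0.121%). These shares of all genes are the background for each count of called list members below. The rises ran from 0.27 to 2.30 with a median of 0.55, and 9 of them passed a doubling. The falls ran from -0.41 to -1.88 with a median of -0.69, and 5 passed a halving of the level. All 102 had treated mice wholly above or wholly below the vehicle mice, which held for 592 of all genes tested (3.25%). The median change over all genes was 0.00, and 90% of genes lay between -0.23 and 0.21.

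The count changed when single arrays were left out, from 52 to 119. It was 119 without vehicle mouse 41 and 111 without troglitazone mouse 55, and it was 52 without vehicle mouse 43, 55 without troglitazone mouse 54, 64 without vehicle mouse 45, 67 without vehicle mouse 44 and 67 without troglitazone mouse 51. Without both muscle-poor arrays (vehicle mouse 41 and troglitazone mouse 54), an alternative chosen after the data were seen, it was 56, and 21 of the 46 called genes named below lost their call. That fit rests on fewer mice and does not even out muscle RNA between the groups, so it does not measure the part of muscle RNA. In the 10 fits that leave out 1 array each, 46 of the 102 genes passed in every fit. Among the 46 named genes, 27 passed in every one of those fits. The other 19 were Dbp, Dixdc1, Pnpla3, Mtss1, Lrrc8c, Acsl3, Bhlhb9, Tle3, Gpihbp1, Cenpa, Lama4, Adamts9, Cxcl9, Lipg, Car4, Gdf5, Pim3, Adam12 and Svep1. Their calls were lost in 2 (Mtss1) to 9 (Acsl3, Lipg, Lrrc8c) of the 10 fits, at adjusted p values of at most 0.126 in limma. Leaving out vehicle mice 41 to 45 in turn removed 6, 10, 19, 12 and 16 of the 46 calls, and leaving out troglitazone mice 51 to 55 in turn removed 12, 13, 11, 16 and 4. None of the 46 changed sign under any setting tried.

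The serine kinase gene Sgk2 rose most. It read 5.79, 7.23, 6.63, 6.46 and 7.11 in vehicle mice 41 to 45 and 8.90, 8.90, 8.62, 8.78 and 9.49 in troglitazone mice 51 to 55. Every treated mouse lay above every vehicle mouse by more than a doubling, and the change was 2.30 ± 0.25 (SE, n = 5 and 5; adjusted p = 0.00348, limma). Sgk2 had been placed in a list of glucocorticoid response genes beside its relative Sgk1; it was the 1 member of 12 that was called, and Sgk1 stood at -0.19, so the rise was not shared by the list, whose median was -0.10. Gramd1b, which encodes a carrier of cholesterol from the cell surface to the endoplasmic reticulum, rose by 1.41 ± 0.19 (adjusted p = 0.00762, limma). Enc1, an actin-binding kelch protein first described in nerve cells and also present in differentiating preadipocytes, read 10.56 to 10.73 in the vehicle mice and 11.49 to 11.81 in the treated mice. The spread within each group was small beside that gap, and with a change of 1.0 ± 0.07 it had the lowest adjusted p of all genes (0.00021, limma).

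**Figure D2:**
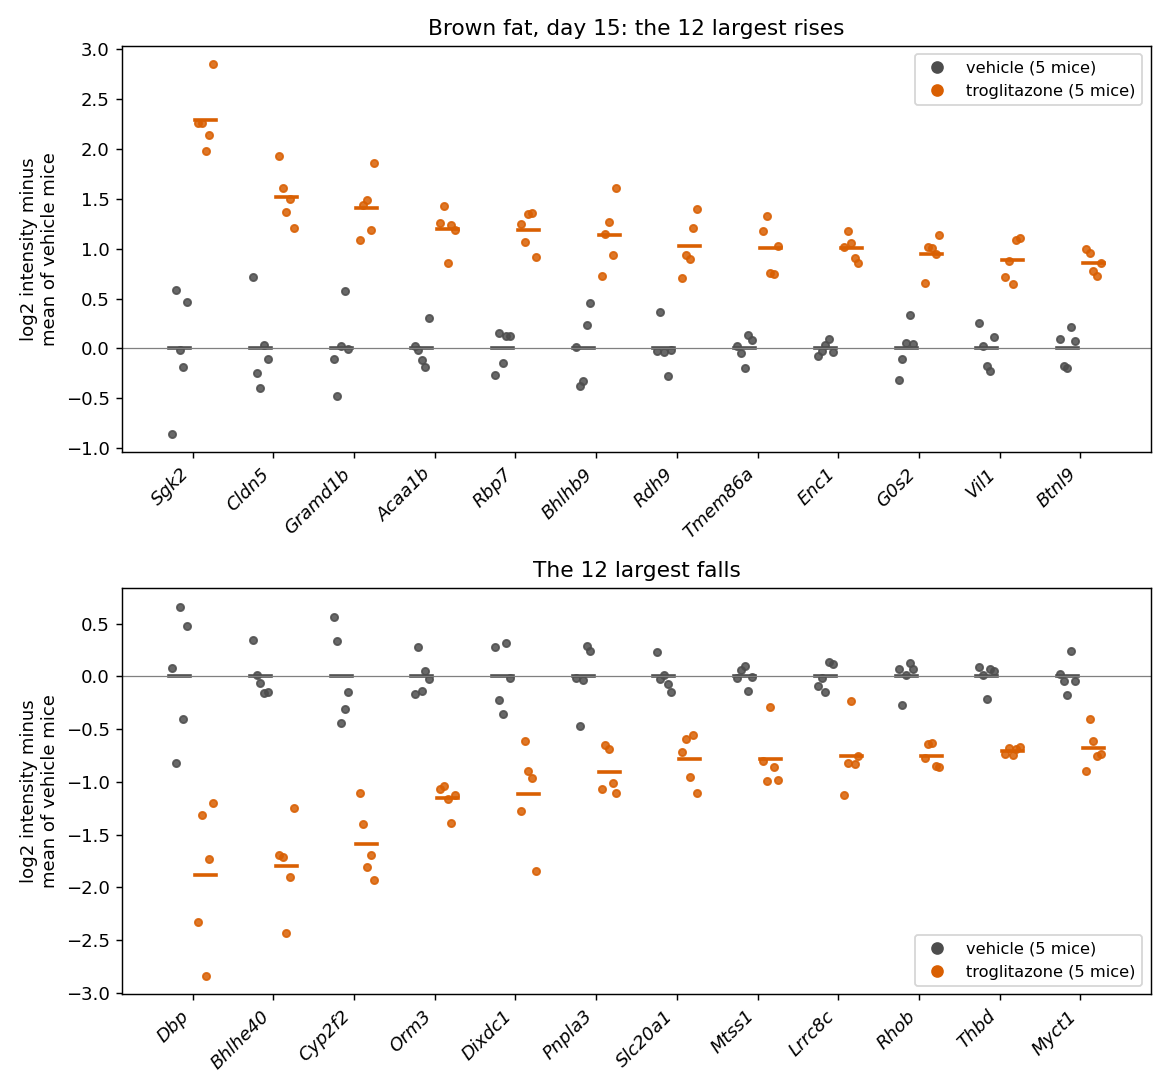
Log2 intensity of the 12 genes with the largest rises (upper panel) and the 12 with the largest falls (lower panel) in each of 5 vehicle (grey) and 5 troglitazone (orange) mice, as the difference from the vehicle mean of that gene; short bars are group means. No gene has overlapping groups, and the vehicle spread is widest for Sgk2 and Dbp.

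Further large rises were Bhlhb9 (1.14 ± 0.19), Rdh9, a retinol dehydrogenase (1.03 ± 0.14), Tmem86a, an enzyme that breaks down lysoplasmalogens (1.0 ± 0.12), and Vil1, an actin-bundling protein (0.89 ± 0.12). Rdh9 was dim, rising from a vehicle mean of 4.66, which lay above 6.1% of genes, to 5.69. Among genes that no list held, and that were picked out after their values were seen, Smad6, an inhibitor of bone morphogenetic protein signalling inside the cell, rose by 0.81 ± 0.12. Gdf5, a ligand of that pathway, rose by 0.82 ± 0.15. Chrna2, a nicotinic acetylcholine receptor subunit, rose by 0.80 ± 0.10.

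The receptors themselves moved in opposite directions. Pparg, the receptor that troglitazone binds, read 12.55, 12.64, 12.50, 12.35 and 12.52 in vehicle mice 41 to 45 and 12.02, 11.91, 12.13, 12.06 and 11.98 in troglitazone mice 51 to 55. All 5 treated mice were lower, with no overlap, and Pparg fell by 0.49 ± 0.07 (adjusted p = 0.00762, limma). Ppara, the related receptor that drives fatty acid oxidation, read 11.82, 11.99, 11.78, 11.61 and 11.57 with vehicle and 12.50, 12.52, 12.48, 12.58 and 12.12 with troglitazone. It rose by 0.68 ± 0.10 (adjusted p = 0.0141, limma); the groups did not overlap, although treated mouse 55 lay nearer to the vehicle mice than the other 4 did. Both receptors were still called when any 1 array was left out, while the call on Ppara was lost without mice 41 and 54 together (adjusted p = 0.0596, limma).

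Of the 20 measured genes for PPARs, their retinoid X receptor partners and coregulators, 2 rose and 1 fell, and the median change was 0.06. The third called member was Tle3, a coregulator that works with PPARγ in adipocytes, which rose by 0.43 ± 0.08 (adjusted p = 0.0296, limma). The partner receptors Rxra, Rxrb and Rxrg stood at 0.00, -0.08 and 0.22 and were not called. The adipogenic factors Cebpa and Cebpb stood at 0.18 and 0.05, the coactivator Ppargc1a at 0.19, and the brown fat regulator Prdm16 at -0.03, none of them called. Nrip1, a corepressor that restrains oxidative genes, stood at 0.56 with an adjusted p of 0.125 (limma).

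The DNA before the start sites of called genes was searched for the letters PPARγ is known to read. Sequences that carry or lack them are shown because the drug's class binds and activates that receptor. Whether the changes seen here ran through it was not tested. RefSeq promoters (GRCm38.p6; the 250 bases before the start) were at hand for 83 of the 102 called genes. The direct repeat AGGTCANAGGTCA, searched on both strands, was found in 0 of the 83, in 0.0484% of the measured genes and in 0.0407% of all 27025 genes of the promoter table. A looser form with 2 open bases, AGGNNANAGGTCA, was found in 1 of the 83 (1.2%), Aqp7, in 0.263% of the measured genes and in 0.226% of all genes of the table. Both repeats are so rare that 83 genes cannot show whether called genes hold them more or less often. The single half-site AGGTCA was found in 12 of the 83 genes (14.5%), in 14.6% of the measured genes and in 15.8% of all genes of the promoter table. Counted by gene, called genes thus did not hold it at a higher share. Counted by promoter, the share was 15.1% for called genes, 12.5% for measured genes and 14.0% for the whole promoter table. A match is a string of letters and not a measured binding site, and windows farther from the start were not searched. In Aqp7, chr4:41047963-41048212, minus strand, the capitals mark the reverse strand of the looser repeat, 101 to 89 bases before the start. In Pparg, chr6:115360894-115361143 and chr6:115362099-115362348, plus strand, they mark the half-site, 28 and 9 bases before 2 of its starts. Rbp7, chr4:149454969-149455218, minus strand, and Cldn5, chr16:18776597-18776846, plus strand, rose most among genes of the capillary wall and hold neither form here.
Aqp7: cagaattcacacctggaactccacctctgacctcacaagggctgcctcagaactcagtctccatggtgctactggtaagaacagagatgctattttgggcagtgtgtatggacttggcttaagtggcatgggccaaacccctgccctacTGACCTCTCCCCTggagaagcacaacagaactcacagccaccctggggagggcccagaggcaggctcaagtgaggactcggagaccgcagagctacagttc
Pparg, first start: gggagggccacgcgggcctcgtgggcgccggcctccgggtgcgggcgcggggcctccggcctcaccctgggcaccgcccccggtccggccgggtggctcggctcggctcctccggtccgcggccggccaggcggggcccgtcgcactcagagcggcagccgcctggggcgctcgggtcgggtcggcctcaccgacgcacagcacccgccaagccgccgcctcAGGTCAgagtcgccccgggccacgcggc
Pparg, second start: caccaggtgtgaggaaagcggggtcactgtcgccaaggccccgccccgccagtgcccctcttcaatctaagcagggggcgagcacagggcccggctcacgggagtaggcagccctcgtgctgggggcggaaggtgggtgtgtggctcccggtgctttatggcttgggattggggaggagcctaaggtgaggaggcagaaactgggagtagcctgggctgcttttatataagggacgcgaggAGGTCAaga
Rbp7: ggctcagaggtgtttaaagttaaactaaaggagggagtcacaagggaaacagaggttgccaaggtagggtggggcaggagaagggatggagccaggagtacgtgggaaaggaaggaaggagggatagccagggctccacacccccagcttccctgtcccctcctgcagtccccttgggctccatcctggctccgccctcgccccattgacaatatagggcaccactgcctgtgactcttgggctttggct
Cldn5: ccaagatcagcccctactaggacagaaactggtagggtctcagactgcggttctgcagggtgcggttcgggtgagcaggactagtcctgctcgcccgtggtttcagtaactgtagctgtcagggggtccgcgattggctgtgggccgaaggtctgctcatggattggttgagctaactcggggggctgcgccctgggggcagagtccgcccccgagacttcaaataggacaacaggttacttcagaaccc

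The lists of glycerol supply, lipolysis and fatty acid uptake held a few called genes, of which some rose and others fell. Aqp7, the channel through which glycerol crosses the adipocyte membrane, read 9.85, 10.01, 9.85, 9.99 and 10.16 in vehicle mice and 10.50, 10.50, 10.53, 10.49 and 10.33 in treated mice. The groups did not overlap and the 4 highest treated values lay within 0.04 of each other; Aqp7 rose by 0.50 ± 0.07 (adjusted p = 0.0104, limma). It was the 1 called member of 16 genes of glycerol supply and triglyceride synthesis, whose median was 0.02. Gpat3, which adds the first fatty acid to glycerol phosphate, had a larger difference of 0.89 ± 0.19 with an adjusted p of 0.0834 (limma), and Pck1, which makes glycerol phosphate from pyruvate products, stood at 0.15.

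G0s2, the inhibitor of the main triglyceride lipase, read 11.91, 12.12, 12.28, 12.56 and 12.27 in vehicle mice and 12.88, 13.24, 13.23, 13.17 and 13.36 in treated mice. It rose by 0.95 ± 0.12 (adjusted p = 0.00762, limma), without overlap. Pnpla3, a lipid droplet protein whose level in fat follows feeding, read 11.71, 11.25, 11.69, 12.01 and 11.96 against 10.66, 11.07, 11.04, 10.71 and 10.62. It fell by 0.90 ± 0.15 (adjusted p = 0.0199, limma), with vehicle mouse 42 nearest to the treated mice. These were the 2 called of 11 lipolysis genes; the lipases themselves, Pnpla2, Lipe and Mgll, stood at 0.08, 0.05 and 0.12, and the list's median was 0.12.

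Of 17 genes for fatty acid uptake and carriage 1 rose and 1 fell, with a median of 0.07. Gpihbp1, the capillary protein that holds lipoprotein lipase in place, rose by 0.35 ± 0.06 (adjusted p = 0.0211, limma) from 12.11 to 12.34 in vehicle mice to 12.50 to 12.60 in treated mice. Lpl itself stood at 0.00 and the fatty acid transporter Cd36 at 0.08. Acsl3, which activates long fatty acids for droplet growth, fell by 0.54 ± 0.10 (adjusted p = 0.036, limma). Angptl4, an inhibitor of lipoprotein lipase, stood at 0.49 ± 0.11 with an adjusted p of 0.0857 (limma). None of the 13 droplet coat and formation genes was called; Cidec, which fuses droplets, stood at 0.31 (adjusted p = 0.102, limma) and the coat protein Plin2 at -0.11.

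**Figure D3:**
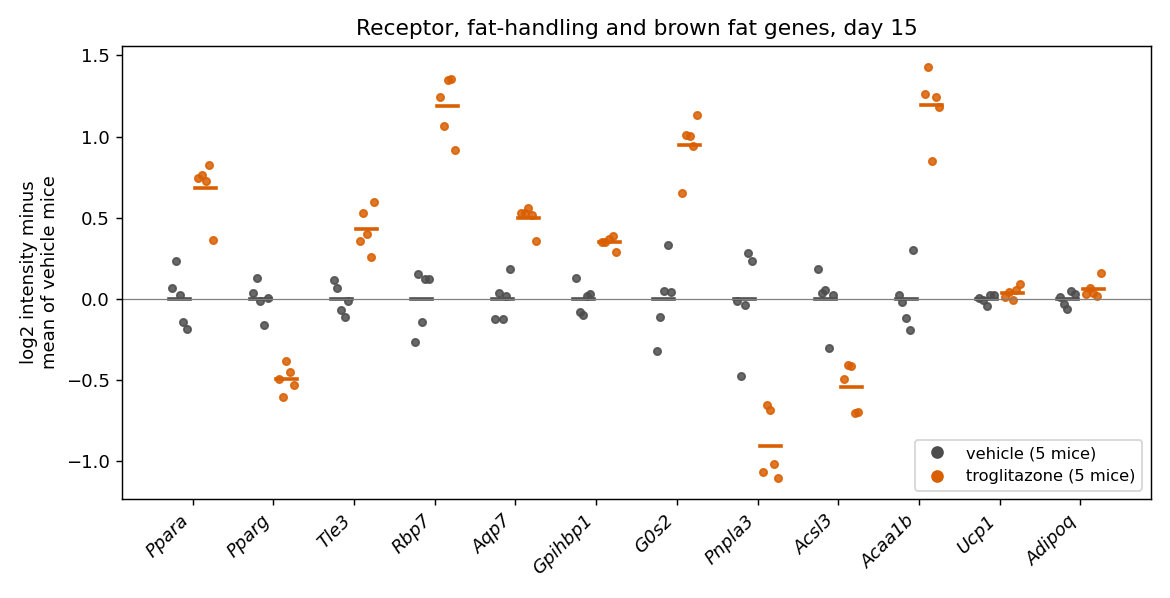
Log2 intensity of 12 genes in each of 5 vehicle (grey) and 5 troglitazone (orange) mice, as the difference from the vehicle mean of that gene; short bars are group means. The 10 genes from Ppara to Acaa1b have groups that do not overlap, with Pparg, Pnpla3 and Acsl3 lower in treated mice; Ucp1 and Adipoq differ by 0.04 and 0.06.

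Fatty acid oxidation genes lay mostly above 0, with 1 call among 26. Acaa1b, the peroxisomal thiolase that completes a round of chain shortening, read 11.32, 11.28, 11.18, 11.11 and 11.60 in vehicle mice and 12.56, 12.73, 12.15, 12.54 and 12.48 in treated mice. Its groups did not overlap, and it rose by 1.20 ± 0.12 (adjusted p = 0.00153, limma). Acaa1b has a close copy in the mouse genome, Acaa1a, and the probe set may read both. Of the 26 genes, 22 stood above 0 with a median of 0.10, against 50.9% of all genes above 0; 9 were higher and 1 lower at an unadjusted p below 0.05, which 5.96% and 4.41% of all genes tested were. Ehhadh, a peroxisomal enzyme of the same pathway, stood at 0.43 with an adjusted p of 0.0504, just outside the threshold. The mitochondrial enzymes Acadm, Acadl and Hadha stood at 0.09, 0.04 and 0.06.

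Peroxisome genes pointed the same way without a call: all 13 measured genes of the list, which holds biogenesis factors and catalase, stood above 0, with a median of 0.10 and a range of 0.03 to 0.24. Outside the lists, and picked out after their values were seen, Ephx2, the soluble epoxide hydrolase found partly in peroxisomes, rose by 0.44 ± 0.06 (adjusted p = 0.00762, limma), and Slc25a42, the coenzyme A carrier of mitochondria, rose by 0.59 ± 0.08 (adjusted p = 0.00842, limma). Fatty acid synthesis leaned the other way. Of 18 genes 17 stood below 0 with a median of -0.16 and none called. At an unadjusted p below 0.05, 7 were lower, where 4.41% of all genes tested were. Fasn stood at -0.07, Acaca at -0.21 and Mid1ip1 at -0.53. Cholesterol synthesis had 15 of 17 genes below 0, a median of -0.22 and no call.

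Heat production and respiration showed no call. Of 17 brown adipocyte genes none was called and the median was 0.06: Ucp1 stood at 0.04 ± 0.05, Cidea at 0.10, Dio2, which activates thyroid hormone, at 0.18, and the brown fat transcription factor Ebf2 at 0.50 (adjusted p = 0.263, limma). None of 24 respiratory chain and ATP synthase genes was called, and all of them lay between -0.04 and 0.11. Ucp1 read close to the highest deposited value on every day 15 array, and the respiratory list mean was also high (14.223 to 14.295). Whether a rise would show in full at such levels was not tested. White adipocyte markers, 15 genes, had no call and a median of 0.11. Adipoq, the adiponectin gene, stood at 0.06 ± 0.05, and Lep, the leptin gene, at -0.58 ± 0.50, with a spread between vehicle mice (SD 1.11) larger than the difference. Glucose uptake and glycolysis had 14 of 16 genes below 0, a median of -0.10 and no call. Hk2 stood at -0.42 and Slc2a4, the insulin-responsive glucose transporter, at -0.08. This list includes genes that muscle expresses strongly, such as Pfkm (-0.34), and the part of muscle RNA in it was not tested. Its median was -0.10 also without mice 41 and 54, but that fit does not even out muscle RNA between the groups.

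**Figure D4:**
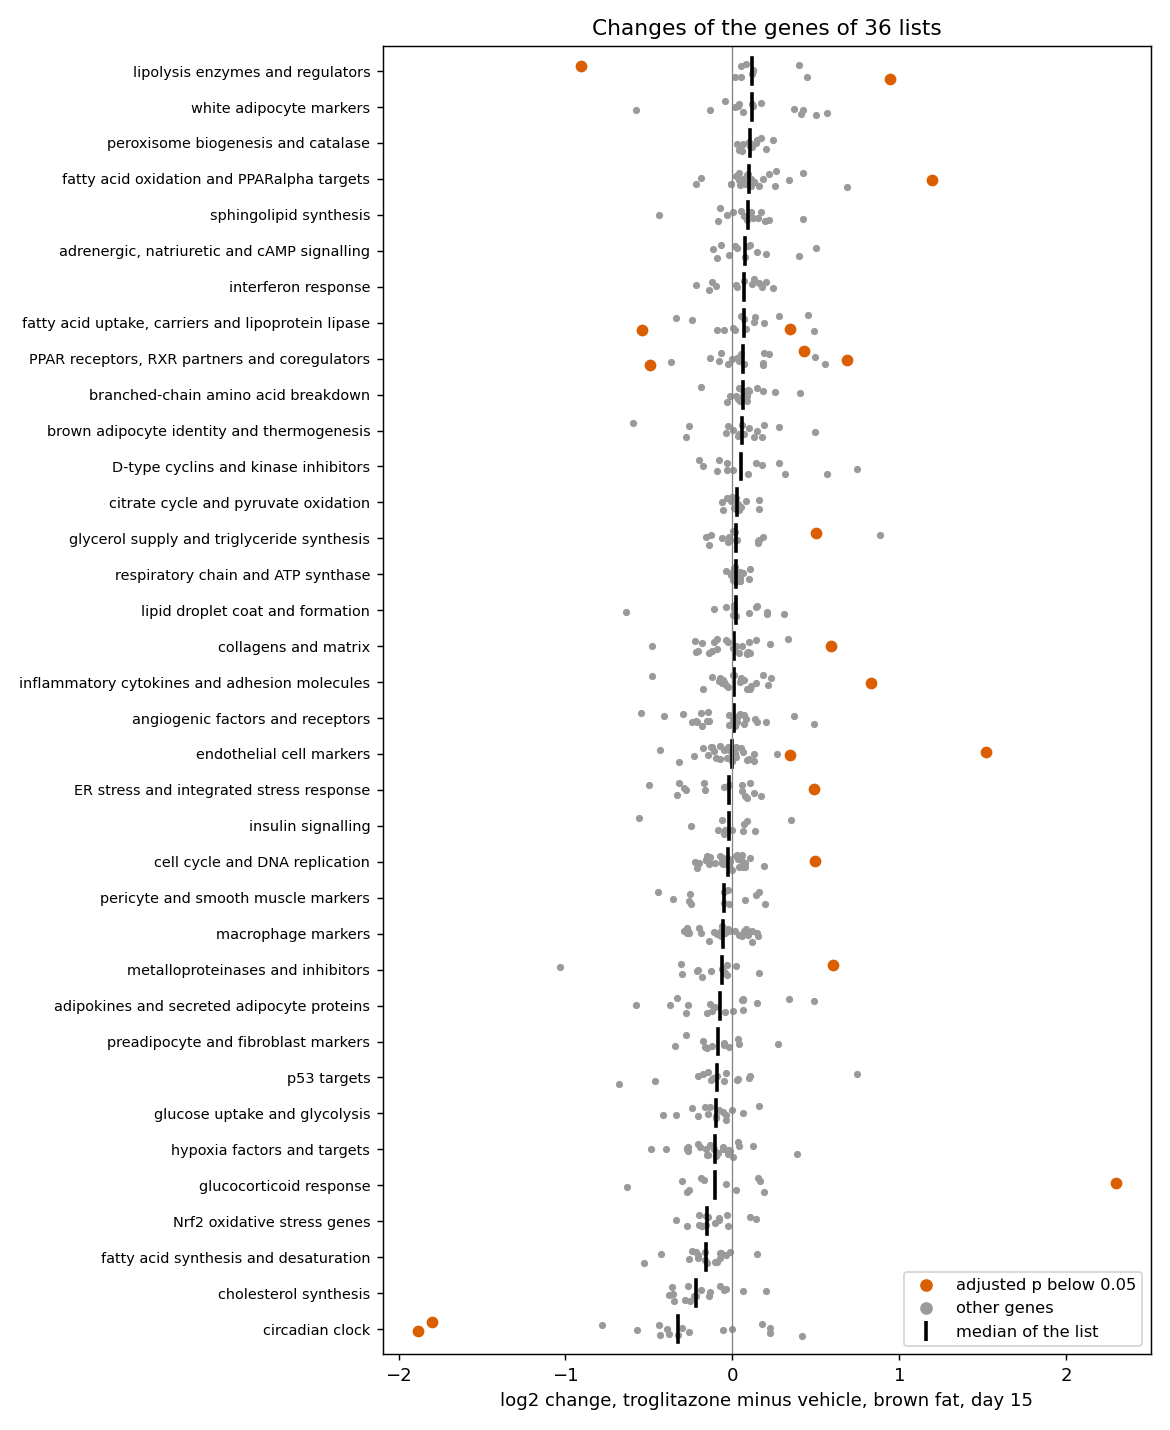
Log2 change on day 15 of every measured gene in 36 lists (the 7 marker lists of other cell types are not drawn), ordered by the list median (black bars); orange points are genes at an adjusted p below 0.05 and grey points the others. Most lists lie around 0 with at most 3 called genes, and the circadian clock list has the lowest median (-0.33).

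Genes of the vessel wall were examined because the series concerns tumours of endothelium. Of 32 endothelial markers 2 rose, where 0.44% of all genes did, and none fell; 14 stood above 0 and 18 below, and the median was 0.00. Kdr, the main VEGF receptor, stood at 0.00 ± 0.07 and the endothelial adhesion protein Pecam1 at 0.02 ± 0.07. Cldn5, the claudin that seals endothelial tight junctions, read 10.34, 9.38, 9.23, 9.66 and 9.52 in vehicle mice and 11.55, 11.23, 10.99, 11.12 and 10.83 in treated mice. Vehicle mouse 41 was the highest of its group and still below every treated mouse, and Cldn5 rose by 1.52 ± 0.20 (adjusted p = 0.00762, limma). The second was Gpihbp1, given above, whose call was lost in 8 of the 10 fits that leave out 1 array each.

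Rbp7 and Btnl9, which the list does not hold, were among the 12 largest rises. Rbp7, a retinol-binding protein of adipose capillaries, read 10.57, 10.99, 10.69, 10.96 and 10.96 in vehicle mice and 12.08, 11.90, 12.18, 12.19 and 11.75 in treated mice. It more than doubled in the treated group with no overlap, a change of 1.18 ± 0.11 (adjusted p = 0.00136, limma). Btnl9, a butyrophilin-like surface protein, rose by 0.86 ± 0.09 (adjusted p = 0.00236, limma). Picked out after their values were seen, Gpr182, a chemokine-binding receptor of endothelium, rose by 0.85 ± 0.10, Lipg, the endothelial lipase, by 0.64 ± 0.12, and Car4, a carbonic anhydrase on the capillary surface, by 0.45 ± 0.07.

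Thbd, or thrombomodulin, the receptor through which endothelium restrains clotting, read 10.48, 10.40, 10.18, 10.46 and 10.44 in vehicle mice and 9.66, 9.71, 9.65, 9.70 and 9.72 in treated mice. The treated mice lay within 0.07 of each other and below all vehicle mice; Thbd fell by 0.71 ± 0.06 (adjusted p = 0.00136, limma). Myct1, an endothelial membrane protein, fell by 0.68 ± 0.10 (adjusted p = 0.012, limma). Rhob, a small GTPase of endosomes and vessel growth, fell by 0.75 ± 0.08 (adjusted p = 0.00348, limma).

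Growth factors of vessels were not called: of 28 angiogenic factors and receptors 0 passed, with a median of 0.01. Vegfa stood at -0.15 ± 0.08 and Angpt2, which loosens vessels, at -0.19; Pdgfb, which endothelium uses to recruit pericytes, stood at -0.55 with an adjusted p of 0.0699 (limma). Of 26 hypoxia factors and targets 0 were called, 21 stood below 0 and the median was -0.10. At an unadjusted p below 0.05, 6 were lower, where 4.41% of all genes tested were. Hif1a stood at -0.15 ± 0.06, Epas1 at -0.09 and the oxygen-regulated genes Bnip3 and Slc2a1 at -0.03 and -0.10. Pericyte and smooth muscle markers, 13 genes, had no call and a median of -0.05.

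Cell division genes gave 1 call of 35, with a median of -0.03. That gene was Cenpa, the centromere's histone H3 variant, which rose by 0.50 ± 0.09 (adjusted p = 0.027, limma), from 8.01 to 8.32 in vehicle mice to 8.47 to 8.84 in treated mice. All of its 3 probe sets stood above 0 but 1 had an unadjusted p below 0.05, and the mean of the 3 was not called (adjusted p = 0.346, limma). Mki67, the proliferation antigen, stood at -0.22 ± 0.29, Top2a at -0.02, Cdk1 at 0.07 and Pcna at -0.11. Among 14 D-type cyclins and kinase inhibitors none was called: Ccnd1 stood at -0.03 ± 0.09, and the inhibitors Cdkn1a and Cdkn1c at 0.75 (adjusted p = 0.169) and 0.57 (adjusted p = 0.0544, both limma).

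Matrix and immune lists held single calls. Lama4, the laminin chain of endothelial and adipocyte basement membrane, was the 1 called of 26 matrix genes and rose by 0.59 ± 0.09 (adjusted p = 0.019, limma), while the list's median was 0.01. Adamts9, a secreted metalloproteinase, rose by 0.60 ± 0.10 and was the 1 called of 15. Adam12 and Svep1, a membrane-bound metalloproteinase and a large adhesion protein, rose by 0.58 ± 0.10 and 0.71 ± 0.12; both were picked out after their values were seen. None of 27 macrophage markers was called and their median was -0.06. Cxcl9, a chemokine that interferon gamma raises, rose by 0.83 ± 0.15 (adjusted p = 0.0314, limma), the 1 called of 23 inflammatory genes, while the 13 interferon response genes had no call and a median of 0.07. Asns, asparagine synthetase, rose by 0.49 ± 0.06 (adjusted p = 0.00762, limma); it was the 1 called of 17 genes of endoplasmic reticulum stress and the integrated stress response, whose median was -0.02.

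Among the 36 lists other than the 7 marker lists of other cell types, the circadian clock list had the lowest median (-0.33). Of its 17 genes 0 were called higher and 2 lower, where 0.121% of all genes tested were called lower. Those 2 clock genes were the 2 largest falls of the comparison. Dbp, a transcription factor that the clock drives directly, read 10.78, 9.88, 11.36, 10.30 and 11.18 in vehicle mice and 8.37, 9.39, 7.86, 8.97 and 9.50 in treated mice. The groups did not overlap but both spread over more than 1 unit, and the fall of 1.88 ± 0.35 had an adjusted p of 0.0449 (limma). The call on Dbp was lost in 8 of the 10 fits that leave out 1 array each. Bhlhe40, a repressor that acts on clock promoters and in metabolism, read 12.31, 11.98, 11.90, 11.81 and 11.82 against 10.27, 10.25, 9.53, 10.06 and 10.72. Every treated mouse was lower by more than a halving of the level than any vehicle mouse, and Bhlhe40 fell by 1.80 ± 0.19 (adjusted p = 0.00236, limma). Of the 17, 10 were lower at an unadjusted p below 0.05, where 4.41% of all genes tested were. Among the 10 were the repressors Nr1d1 and Nr1d2 at -0.44 each, while Arntl, which drives them, stood at 0.42 (adjusted p = 0.357, limma). The labels do not state the hour at which tissue was taken, and its part in these values was not tested. In liver, 8 of whose 10 mice were the same animals, the list's median was 0.01 and Bhlhe40 stood at -0.12 ± 0.18; the difference between the tissues was called for Bhlhe40 (-1.68; adjusted p = 0.0116, limma). Dbp stood at -0.23 ± 0.61 in liver, and its difference between the tissues was not called (-1.66; adjusted p = 0.514, limma).

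The remaining large falls were of mixed function. Cyp2f2, a cytochrome P450, read 8.91, 8.68, 7.90, 8.04 and 8.20 in vehicle mice and 7.24, 6.95, 6.54, 6.65 and 6.42 in treated mice, a fall of 1.59 ± 0.21 without overlap (adjusted p = 0.00762, limma). Its mean in the liver of vehicle mice on day 15 was 14.26, against 8.35 in their brown fat. The part of liver RNA in this fall was not tested. Orm3, an acute-phase plasma protein gene, fell by 1.15 ± 0.09 (adjusted p = 0.000746, limma); its family has near-identical copies, so the probe set may read more than 1 of them. Dixdc1, a Wnt pathway protein, fell by 1.12 ± 0.21, Slc20a1, a phosphate importer, by 0.79 ± 0.11, Mtss1, a membrane-bending protein, by 0.78 ± 0.12, and Lrrc8c, a subunit of the volume-regulated anion channel, by 0.75 ± 0.14. Pim3, a survival kinase picked out after its values were seen, rose by 0.42 ± 0.07.

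The choice of probe set mattered for a few calls. With the mean of all probe sets in place of the brightest, Slc20a1, Dixdc1, Tle3, Lipg, Pim3 and Slc25a42 joined Cenpa in losing the call, at adjusted p values between 0.0755 and 0.149 for these 6 (limma), and all 7 kept their sign. The changes were smaller with the mean: -0.34 for Slc20a1, -0.60 for Dixdc1, 0.40 for Tle3, 0.46 for Lipg, 0.28 for Pim3, 0.34 for Slc25a42 and 0.18 for Cenpa.

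The same comparison was made after 29 days in other mice, 5 per group. Here 2 arrays stood apart: in vehicle mouse 82 and troglitazone mouse 95, Ucp1 read 5.91 and 8.10 against 14.91 or more in the other 8, and the thermogenic means were -3.83 and -3.24. White adipocyte markers were high in both (2.74 and 2.92), and hepatocyte markers stood at 4.97 in mouse 82, so these 2 arrays went against their brown fat label. With all 10 arrays limma called 0 genes, with 527 (2.9%) at an unadjusted p below 0.05. Without mice 82 and 95, an alternative chosen after the data were seen, it called 19 genes (0.104%), of which 8 rose (0.044%) and 11 fell (0.0605%).

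The day 15 genes kept their direction on day 29. Of the 102, 101 had the same sign on day 29 with all 10 arrays and 101 with 8, against 65.2% and 63.1% of all genes. With 8 arrays, 89 of them had an unadjusted p below 0.05 (11.8% of all genes), 71 had groups that did not overlap in the same direction (3.53% of all genes lay wholly above and 3.39% wholly below), and 13 of the 102 were among the 19 called. Those 13 were Cldn5, Rbp7, Bhlhb9, Tmem86a, Gpr182, Aatk and Decr2, which rose, and Orm3, Thbd, Myct1, Slc20a1, Acsl3 and Mtss1, which fell. On day 29 Rbp7 stood at 1.19 ± 0.10 (adjusted p = 0.00662, limma with 8 arrays) and Thbd at -0.95 ± 0.10 (adjusted p = 0.0167), neither smaller than on day 15.

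Among the 102, 83 had a smaller change on day 29 (8 arrays) than on day 15. The median of the 80 rises was 0.425 on day 29 against 0.554 on day 15, and that of the 22 falls was -0.584 against -0.693. Since the genes were chosen on day 15, a smaller value on another day is built into the choice. With 8 arrays Sgk2 stood at 1.14 ± 0.23 on day 29, Bhlhe40 at -0.70 ± 0.18, Tle3 at 0.04 ± 0.09 and Vegfa at -0.54 ± 0.12, none of them called. With all 10 arrays Sgk2 stood at 0.66 ± 0.41, Bhlhe40 at -0.72 ± 0.62, Tle3 at 0.18 ± 0.24 and Vegfa at -0.40 ± 0.29. The difference between the days was tested directly: limma called 0 genes with 20 arrays (207 at an unadjusted p below 0.05) and 0 with 18.

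In the liver of mice given the same treatment, 8 of them the same animals (42 to 45 and 52 to 55), few of these genes were called. Liver had 10 called genes (0.055%), and 1 of the 102 brown fat genes was among them: Acaa1b, which rose by 0.53 ± 0.07 in liver (adjusted p = 0.0176, limma). Of the 102 genes, 54 had the same sign in liver, against 51.4% of all genes. Cyp2b10, a cytochrome P450 that the receptor CAR raises in liver, stood at 2.67 in liver and -0.06 in brown fat, and Cyp4a14, a PPARα target of liver, at 2.40 and -0.01.

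The effect in brown fat differed from that in liver for 45 genes (0.247%), 32 with the more positive effect in brown fat (0.176%) and 13 with the more negative (0.0715%; limma, 20 arrays). Of these, 28 were called in brown fat, 21 as rises and 7 as falls, where 0.561% of all genes were called. Both tests use the same brown fat arrays, so part of this overlap is built in. The largest differences toward brown fat were Sgk2 (2.14), Cldn5 (1.67), Gramd1b (1.28), Tmem86a (1.11) and Btnl9 (1.10). The largest in the other direction were Cyp2b10 (-2.73), Cyp4a14 (-2.41), Orm3 (-1.80), Bhlhe40 (-1.68) and Cyp2f2 (-1.59). Pparg, lower in brown fat, stood at 0.16 in liver, and that difference was called too (-0.65; adjusted p = 0.0307). With the mouse as a replicate block, which uses the pairing of tissues in the shared animals, 86 genes were called, 61 and 25 in the 2 directions, including all 45. With quantile normalization 51 were called, split 31 and 20.

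**Figure D5:**
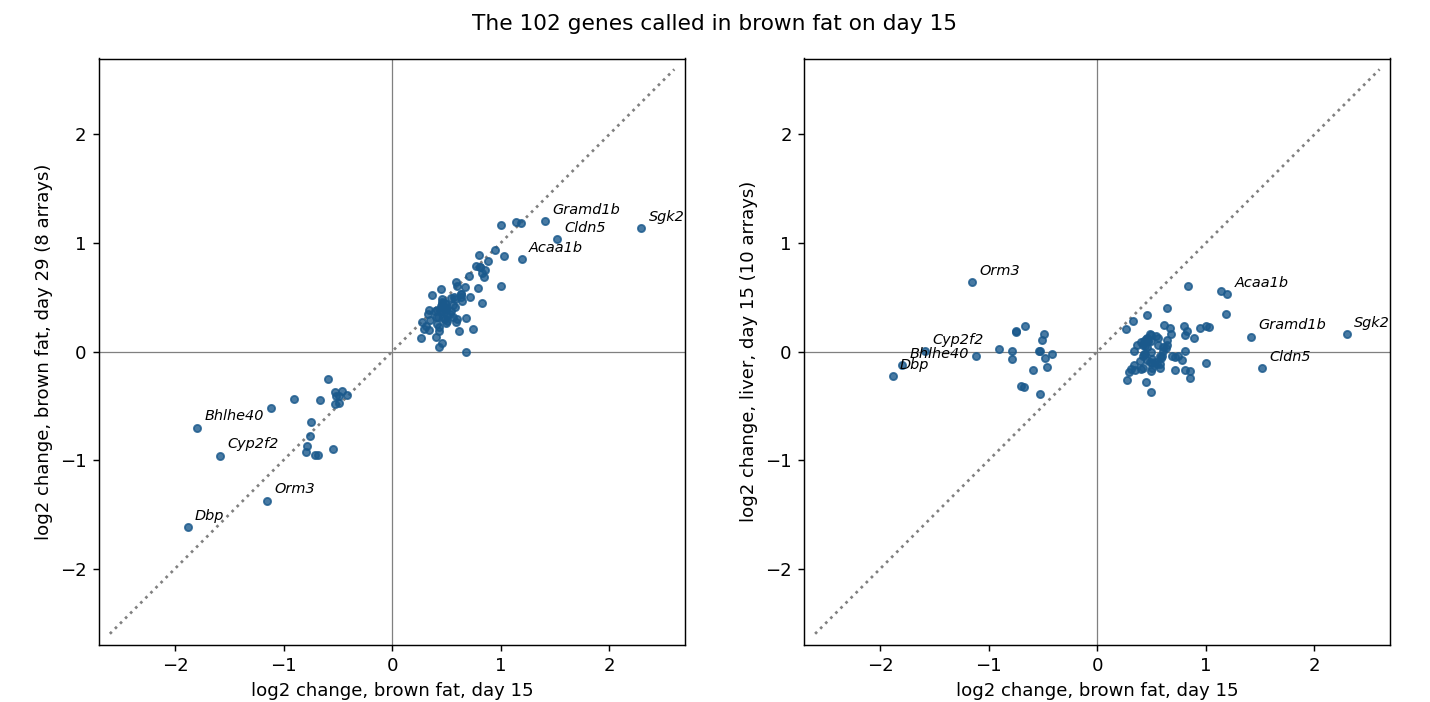
Log2 change of the 102 genes called in brown fat on day 15 (horizontal axis) against their change in brown fat on day 29 without mice 82 and 95 (left) and in liver on day 15 (right); the dotted line marks equal change and the solid lines 0. On day 29 101 of the 102 points share the sign of day 15, and in liver 54 do.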

How the data were processed

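The authors deposited 1 normalized intensity per probe set and array, made from Affymetrix mouse arrays by RMA (background correction, quantile normalization and summary), per the submitters' processing notes; RMA levels arrays, so a shift shared by most genes would not be seen. The deposited intensities (7.44 to 39426) were taken to log2. GEO's platform annotation gave 34945 probe sets 1 symbol, 932 several and 9160 none. The 10 arrays were fitted alone in limma 3.58.1 (R 4.3.3) with eBayes and no filter on dim genes, tested two-sided, and called at a Benjamini-Hochberg adjusted p below 0.05 over 18193 genes; the code was tested on simulated data. Day 29, the difference between days, liver and the difference between tissues were fitted in the same way on their arrays. Errors of changes are SE, n = 5 per group.

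Genes named were the 12 largest rises and 12 largest falls, up to 3 called members of each of 43 lists (735 of 796 entries measured), members of 22 lists whatever their result, 10 fixed genes and the 5 largest tissue differences each way; others are marked, and Aatk, Decr2 and the uncalled genes of the clock and glucocorticoid lists were also named after their values were seen. The members and lists were chosen with earlier results of these data known. Brown fat and liver share 8 mice: the deviations of their arrays correlated at -0.0547 to 0.151, 1 of 8 over 0.1, and the shared number is the source of the pairing; vehicle and treated mice share no number. Alternatives covered a filter on dim genes, normalization, probe sets, the variance model, array weights, the arrays fitted, a fold threshold and leaving out arrays. The 3′ minus 5′ control differences for beta-actin were 0.47 to 0.62 with vehicle and 0.52 to 0.60 with troglitazone. The array number limits the precision.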

Additional observations from a re-analysis of the deposited data

Results flagged for a closer look

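Of 196 sets of 5 values tested (each named gene, and each list mean, in each group on day 15), 11 held a mouse far from the other 4; chance alone gives about 1 in 20. Of the 11, 6 were genes. Troglitazone mouse 53 read 10.73 for Mtss1 (nearest mouse 10.22), and troglitazone mouse 55 read 12.12 for Ppara (nearest 12.48) and 10.33 for Aqp7 (nearest 10.49). Vehicle mouse 42 read 12.33 for Rhob (nearest 12.62). Vehicle mouse 43 read 10.18 for Thbd (nearest 10.40) and 10.12 for Lama4 (nearest 10.29). In none of these 6 did the groups overlap. All 6 are called genes, and all 102 called genes lacked overlap (3.25% of all genes tested), so this says nothing about the mice that stood apart. The other 5 were list means, against the vehicle mean. Vehicle mouse 41 stood at 0.10 for angiogenic factors and receptors, vehicle mouse 43 at 0.42 for metalloproteinases and at 1.24 for neutrophil and mast cell markers, vehicle mouse 42 at 1.59 for hepatocyte markers, and troglitazone mouse 54 at -3.00 for skeletal muscle markers.

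The effect of troglitazone differed between brown fat and liver on day 15, by a test of the difference itself (limma, adjusted p below 0.05), for 21 of the named brown fat genes. Over all genes tested, 45 (0.247%) differed. Most of the named genes were chosen by their change on the same brown fat arrays, so part of this count is built into the choice. The brown fat effect minus the liver effect was positive for Sgk2 (2.14), Cldn5 (1.67), Gramd1b (1.28), Tmem86a (1.11), Btnl9 (1.10), Gpr182 (1.03), Cenpa (0.87), Enc1 (0.77), Svep1 (0.76), Adam12 (0.74), Acaa1b (0.67), Lama4 (0.63), Gpihbp1 (0.52) and Ephx2 (0.39). It was negative for Orm3 (-1.80), Bhlhe40 (-1.68), Cyp2f2 (-1.59), Lrrc8c (-0.95), Rhob (-0.93), Mtss1 (-0.72) and Pparg (-0.65).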

How the results depend on the processing

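On day 15 the count of 102 genes became 245 when the dimmer 50% of genes were dropped (91 of the 102 among them), 218 with a trended and robust variance model (99), 159 with array weights (101) and 49 with a fold of at least 1.5. It was 118 with quantile normalization, 101 with median centring and 126 with probe set means. Leaving out 1 array gave 52 to 119. With all 20 brown fat arrays in 4 groups it was 11, all among the 102; that fit shares its spread with day 29 mice 82 and 95, and without them it was 173 (95 of the 102; chosen after the data were seen). Without mice 41 and 54 it was 56 (47 of the 102). On day 29 the count of 0 became 19 without mice 82 and 95. The tissue difference (45) became 86 with the mouse as a replicate block and 106 without the dimmer 50% of genes, and it was 50 with median centring and 51 with quantile normalization. The difference between days stayed at 0 in every alternative run. No call of a named gene reversed; medians moved by more than their spread for 7 of 43 lists, in 14 of 860 list settings. With 5 mice per group, small changes of dim genes could not be resolved.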
